A study of Mus musculus with 12 samples.

Results

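Cadherins and protocadherins are cell surface proteins that bind, mostly like to like, across the gap between neighbouring cells. The 35 genes described here were taken by name from these families: 5 classical type I cadherins, 11 type II cadherins, 2 cadherins of unusual build (the GPI-anchored Cdh13 and the long Cdh23), 4 delta-1, 5 delta-2 and 2 other protocadherins, 3 flamingo cadherins (Celsr) and 3 Fat cadherins. They were picked by gene name, not by a cut on measured values. On the array, 74 of 45101 probe sets carried one of these 35 symbols. Of these, 52 had 3 or more arrays with a signal over 107, which is the median of the whole table. They stood for 31 of the 35 genes, out of 12845 genes tested in all. The remaining 4 genes, Cdh3, Cdh18, Cdh19 and Pcdh1, gave signals of 1 to 124 over their 5 probe sets and were not tested.

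Classical cadherins hold cells together through calcium-dependent contacts and are tied to the actin skeleton inside the cell by catenins. In the embryonic brain, type II cadherins and delta-protocadherins are known for patchwork expression that differs between neuron groups, where they take part in cell sorting, migration and axon growth. Flamingo and Fat cadherins are giant members that pass on tissue polarity and, in the case of Fat proteins, growth control.

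All cells came from neural tubes of ePet-EYFP mouse embryos at stage E12.5, cut into a rostral and a caudal domain at the pontine flexure, dissociated with trypsin and sorted by fluorescence. The groups were R+ (rostral YFP-positive serotonin neurons), R- (rostral YFP-negative cells), C+ (caudal YFP-positive serotonin neurons) and C- (caudal YFP-negative cells), each with 3 arrays of 200000 sorted cells. Embryos of every group carried the same ePet-EYFP transgene, so R- and C- are the cells of the same domain without the label: a mixture of all other cells, although the sample names call them non-5HT neurons. The 3 arrays of a group are named biological replicates without a word on litters, and the p-values below reflect the scatter of these arrays, part of which may be technical.

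The labelled identities were checked with marker genes. All 7 serotonin neuron markers were higher in both YFP-positive groups, and their summed signal ran 53607 to 59877 in R+, 3364 to 3882 in R-, 35085 to 39348 in C+ and 1316 to 2611 in C-. Of 8 progenitor and radial glia markers, 8 were lower in R+ than R- and 6 were lower in C+ than C-. Their summed signal ran 18389 to 21254 in R+, 47292 to 57710 in R-, 19750 to 26590 in C+ and 48892 to 49622 in C-. Of 4 proliferation markers, 4 were lower in both YFP-positive groups. Of 6 postmitotic neuron markers, 1 was higher in R+ than R- and 1 was higher in C+ than C-. Their summed signal ran 69813 to 83030 in R+, 57379 to 72618 in R-, 61829 to 79471 in C+ and 67494 to 79329 in C-. R- and C- thus held high neuron marker signal beside the progenitor signal. The ratio of beta-actin signal at the 3′ end to that at the 5′ end, a measure of RNA length, averaged 3.38 ± 0.61 on the rostral arrays and 5.77 ± 1.31 on the caudal ones (SD, n = 6 each), with no overlap. In these sorted bulk samples, fewer cells that express a gene and less RNA per cell cannot be told apart.

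Signals are MAS5 intensities on a linear scale. Differences between group means are given on the log2(signal + 10) scale and were tested with limma over all 12 arrays, and a gene is called at a Benjamini-Hochberg adjusted p under 0.05 over all 12845 genes. Arrays with the same replicate number deviated together from their group means, most clearly those of replicate 1, so calls that a replicate block adds are named beside the gene.

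Rostral serotonin neurons and their neighbours were set against each other first. In R+ against R-, 14 of 31 were called, 6 higher and 8 lower, where 12.3% of all genes tested were called, 4.45% higher and 7.88% lower. One of the lower ones, Cdh1, met the signal filter through the 3 R- arrays alone, and without it 13 of 30 were called, 7 of them lower. In C+ against C-, 7 of 31 were called, 3 higher and 4 lower, beside 13.2% of all genes (5.78% higher, 7.38% lower). Between the serotonin neurons of the 2 domains, R+ against C+, 9 of 31 were called, 5 higher and 4 lower, beside 7.19% of all genes (2.71% higher, 4.48% lower). With the arrays scaled to one median, that split became 3 higher and 4 lower, beside 155 higher and 367 lower of all 12845 genes. Between the other cells of the 2 domains, R- against C-, 1 of 31 was called (higher), beside 2.8% of all genes (1.03% higher, 1.78% lower). The test of whether the YFP-positive minus YFP-negative difference itself differed between domains, (R+ minus R-) minus (C+ minus C-), called 5 of 31, 2 higher and 3 lower, beside 1.14% of all genes (0.467% higher, 0.677% lower). With the replicate block these shares of all genes were 21.2%, 23.1%, 21.6%, 10.3% and 2.69%, and the member counts were 15, 8, 13, 4 and 8. Cdh1 is in the block counts of R+ against R- and R- against C-. Without Cdh1 the block gave 7 higher and 7 lower in R+ against R-, and 2 higher and 1 lower in R- against C-. The member medians were -0.005 in R+ against R- (all genes -0.011), -0.125 in C+ against C- (-0.034), 0.187 in R+ against C+ (-0.051) and 0.172 in R- against C- (-0.04). No test was made on these medians.

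**Figure D1:**
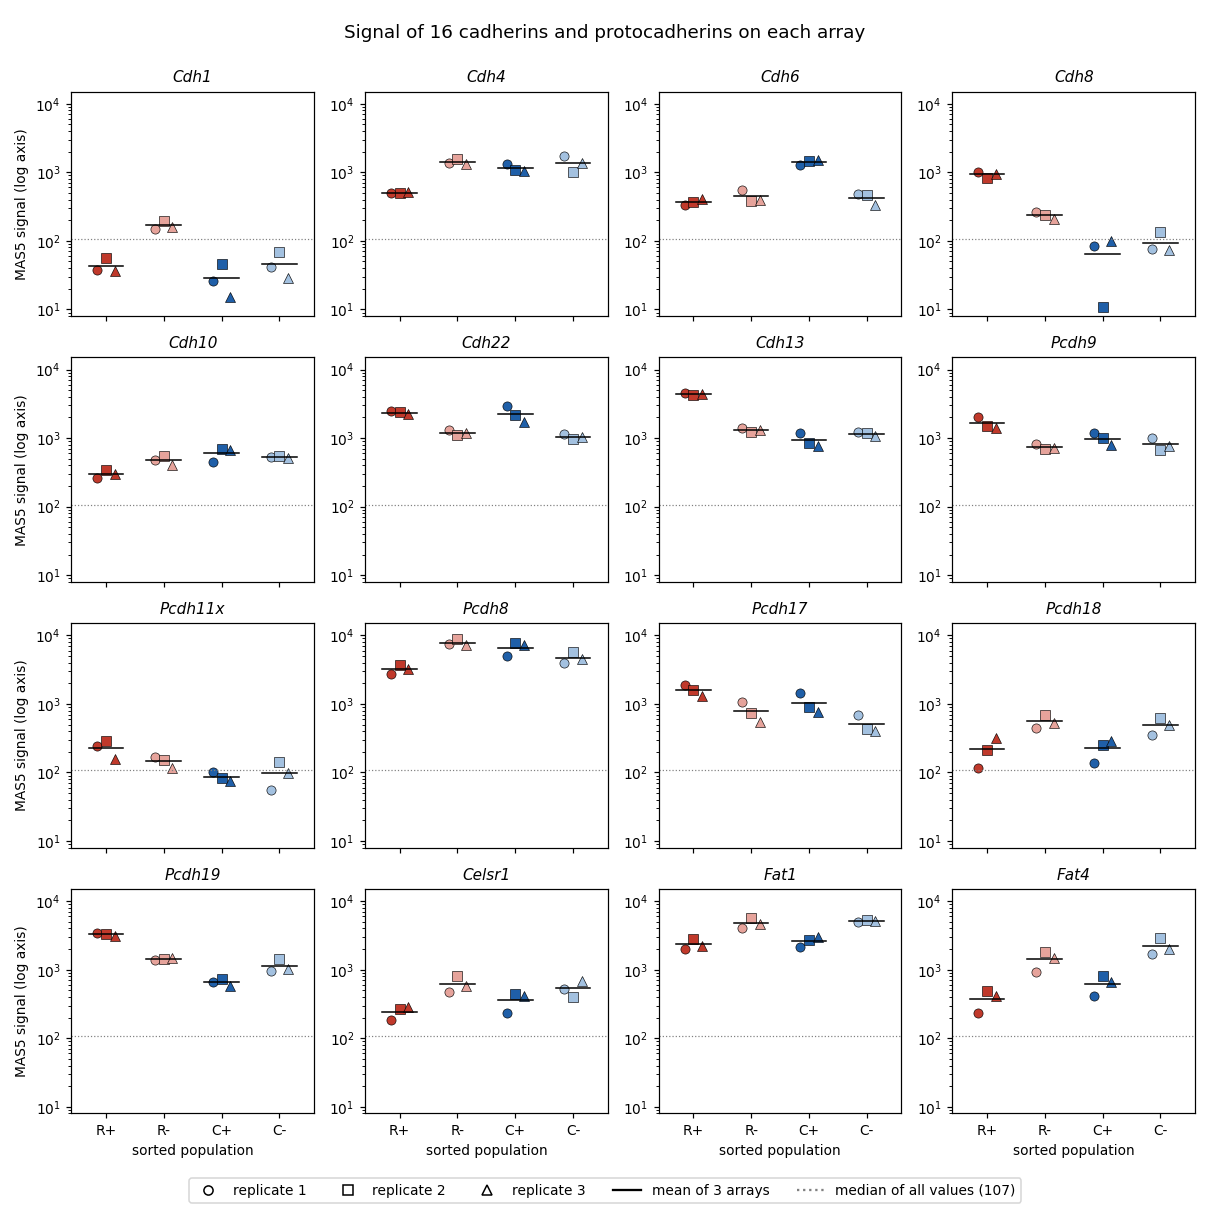
Signal of the cadherins and protocadherins called in at least 1 comparison, on a log axis, with 1 point per array for R+, R-, C+ and C- (n = 3 arrays each), a bar at the mean and a dotted line at 107, the median of all values. Cdh8, Cdh13 and Pcdh19 are highest in R+, Cdh6 is highest in C+, and Fat1 and Fat4 are low in both YFP-positive groups.

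Over both domains the 16 called members fell into a few patterns. Cdh22 and Pcdh17 were higher in both kinds of serotonin neuron, and Fat1, Fat4 and Pcdh18 were lower in both. Cdh8, Cdh13 and Pcdh9 were higher in R+ than R- and were not called in the caudal pair. Cdh4, Cdh10, Pcdh8 and Celsr1 were lower in R+ than R- and not called in the caudal pair. Cdh1 had these calls too, but it met the signal filter through the R- arrays alone, so its call is given as a value only. Cdh6 was called in the caudal pair and not in the rostral one, Pcdh19 was called in both with opposite signs, and Pcdh11x was called only between R+ and C+. The other 15 tested members were called in none of the 5 comparisons.

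Among the type I cadherins, N-cadherin (Cdh2), the main adhesion cadherin of the neural tube, was bright in every group. It averaged 7675 ± 716 in R+ and 6602 ± 903 in R-, and 8434 ± 224 in C+ against 7959 ± 980 in C- (mean ± SD, n = 3 arrays). No comparison called it, and the R+ minus R- difference of 0.22 had a 95% interval of -0.06 to 0.50.

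Cdh4 (R-cadherin), a close relative that can pair with N-cadherin, fell in rostral serotonin neurons. Its signals were 492, 495 and 520 in R+, 1363, 1587 and 1329 in R-, 1300, 1087 and 1053 in C+ and 1700, 1005 and 1351 in C-. The R+ arrays lay below all 9 others, and the caudal groups overlapped. The R+ minus R- difference was -1.48 ± 0.18 (SE, limma adjusted p = 4.59e-05) and the R+ minus C+ difference was -1.17 ± 0.18 (adjusted p = 0.00106). The domain difference of the YFP difference was -1.27 ± 0.25 (adjusted p = 0.0211), and it was past the threshold in 17 of 27 alternatives. The second Cdh4 probe set gave -0.73 for R+ minus R- (adjusted p = 0.133) and 0.31 for R+ minus C+ (adjusted p = 0.573), so the probe sets disagreed in sign between R+ and C+. For that second probe set the domain difference was -0.20 and was not called.

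Cdh1 (E-cadherin), the cadherin of epithelia, was dim. It read 38, 56 and 36 in R+, 149, 196 and 159 in R-, 26, 46 and 15 in C+ and 41, 68 and 29 in C-. R- alone lay above 107, and the gene met the signal filter through those 3 arrays. A gene kept in this way differs between groups by that choice, so its calls are given as values only. The R+ minus R- difference was -1.75 ± 0.52 (adjusted p = 0.0412, and 0.021 with no filter), and without any 1 of the 6 rostral arrays the adjusted p lay between 0.0665 and 0.154. With the replicate block, the R- minus C- difference was 1.72 (adjusted p = 0.0389). Of 4 tested epithelial markers limma called 0 in R+ against R-, also at an unadjusted p under 0.05. The 7 epithelial markers on the array, tested or not, had summed signals of 570 to 1008 in R+ and 630 to 1071 in R-. The sums were 591 to 807 in C+ and 623 to 1135 in C-. Cdh15 (M-cadherin), known from muscle, read 124 to 267 over the 12 arrays and was not called.

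Among the type II cadherins, Cdh8 and Cdh6 stood apart in the serotonin neurons of opposite domains. Cdh8 read 1012, 832 and 942 in R+, 260, 240 and 207 in R-, 85, 11 and 98 in C+ and 75, 133 and 74 in C-. All R+ arrays lay above every other array, all R- arrays lay above the caudal ones, and the caudal groups overlapped below or near the median of all values. The group means gave a signal ratio of 3.94 for R+ over R-. Against C+, whose 3 arrays all lay below 107, the size is uncertain: the R+ minus C+ difference on the log2 scale was 3.96 ± 0.48 (adjusted p = 0.000109) and ran from 2.688 to 5.025 over the alternatives, called in each. The difference was 1.94 ± 0.48 (adjusted p = 0.0137) for R+ minus R-. Leaving out R+ replicate 1 or R- replicate 3 gave adjusted p = 0.0509 and 0.058 for R+ against R-. The domain difference of 2.68 was not called (adjusted p = 0.0878) and was called with the replicate block (adjusted p = 0.0358). Without C+ replicate 1, 2 or 3 it was 3.02, 1.93 and 3.11 and called (adjusted p = 0.034, 0.029 and 0.0362), and without C+ replicate 2, which read 11, the R- minus C- difference of 1.28 was called too (adjusted p = 0.0138). A second Cdh8 probe set was called with the same sign, at 1.95 for R+ minus R- and 2.69 for R+ minus C+. Its domain difference of 2.29 was called (adjusted p = 0.0372). The remaining Cdh8 probe set met the filter through the R+ arrays alone, so its values for R+ minus R- and R+ minus C+ (1.26 and 1.41) are no independent check.

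Cdh6 (K-cadherin) was high in the caudal serotonin neurons instead. It read 336, 369 and 405 in R+, 555, 382 and 395 in R-, 1278, 1459 and 1490 in C+ and 483, 472 and 329 in C-. All C+ arrays lay above the other 9, and R+, R- and C- overlapped. C+ exceeded C- by 1.71 ± 0.19 (adjusted p = 2.14e-05, a signal ratio of 3.29), and R+ was below C+ by a difference of -1.90 ± 0.19 (adjusted p = 2.13e-05). The domain difference was -1.95 ± 0.27 (adjusted p = 0.00159), with adjusted p = 0.107 and 0.0995 when all arrays of replicate 2 or of replicate 3 were left out. The second Cdh6 probe set had the same signs and smaller values, 0.66 for C+ minus C- (adjusted p = 0.238) and -0.87 for R+ minus C+ (adjusted p = 0.124).

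Cdh22 was higher in serotonin neurons of both domains. Its signals were 2456, 2370 and 2258 in R+, 1296, 1113 and 1184 in R-, 2939, 2150 and 1689 in C+ and 1139, 976 and 1035 in C-. Every YFP-positive array lay above every YFP-negative one, and the spread was widest in C+. The difference was 0.98 ± 0.17 in the rostral pair (adjusted p = 0.00139) and 1.06 ± 0.17 in the caudal pair (adjusted p = 0.00063). Without the arrays of replicate 2 the rostral adjusted p was 0.073.

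Cdh10 was lowest in R+. It read 258, 340 and 304 in R+, 477, 555 and 411 in R-, 442, 686 and 666 in C+ and 533, 552 and 509 in C-. R+ did not overlap any other group, and the other 3 groups overlapped. The differences were -0.66 ± 0.20 for R+ minus R- (adjusted p = 0.0415) and -0.95 ± 0.20 for R+ minus C+ (adjusted p = 0.0101). The first was past the threshold in 10 of 28 alternatives, and leaving out any 1 of 9 arrays (those of R+, R- and C-) put its adjusted p between 0.0518 and 0.156. The second reached adjusted p = 0.337 with the beta-actin ratio as a covariate, and 0.0635 and 0.057 without C+ replicate 2 or 3. The other Cdh10 probe set was not called in either (-0.35 and -0.25).

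The remaining tested type II cadherins were not called. Cdh11, found widely in mesenchyme and brain, averaged 891 ± 145 in R+ against 954 ± 175 in R-, and 719 ± 52.8 in C+ against 889 ± 148 in C-. Cdh7 averaged 390 ± 43.5 in R+ against 258 ± 42.8 in R-, and 228 ± 53.0 in C+ against 225 ± 21.7 in C-. Its R+ arrays (340 to 421) lay above all others (170 to 292), with a difference of 0.77 for R+ minus C+ (adjusted p = 0.0527, and 0.0175 with the replicate block). Cdh5 (VE-cadherin, the cadherin of blood vessels), Cdh9 and Cdh20 were dim, with group means of 61.0 to 194.

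Cdh13 (T-cadherin), which lacks a cytoplasmic part and is anchored in the membrane by a lipid, had the smallest adjusted p of the 31 members in both R+ against R- and R+ against C+. It read 4521, 4307 and 4426 in R+, 1383, 1232 and 1291 in R-, 1184, 861 and 773 in C+ and 1237, 1170 and 1089 in C-. R+ stood far above the other groups, and C+ overlapped C-. The mean signal was 4418 ± 107 in R+ against 1302 ± 76.1 in R-, a ratio of 3.39, and against 939 ± 216 in C+, a ratio of 4.70. The differences were 1.76 ± 0.15 for R+ minus R- (adjusted p = 1.84e-06) and 2.24 ± 0.15 for R+ minus C+ (adjusted p = 4.22e-07). The domain difference of 2.09 ± 0.22 (adjusted p = 9.82e-05) was past the threshold in each of the 27 alternatives run. C+ minus C- was -0.33 (adjusted p = 0.203), and it was -0.51 and called without C+ replicate 1 (adjusted p = 0.0233). The second probe set gave 1.85, 2.73 and, for the domain difference, 1.98 (adjusted p = 0.131). Cdh23, known from the hair cells of the inner ear, had group means of 73.0 to 128 and was not called.

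**Figure D2:**
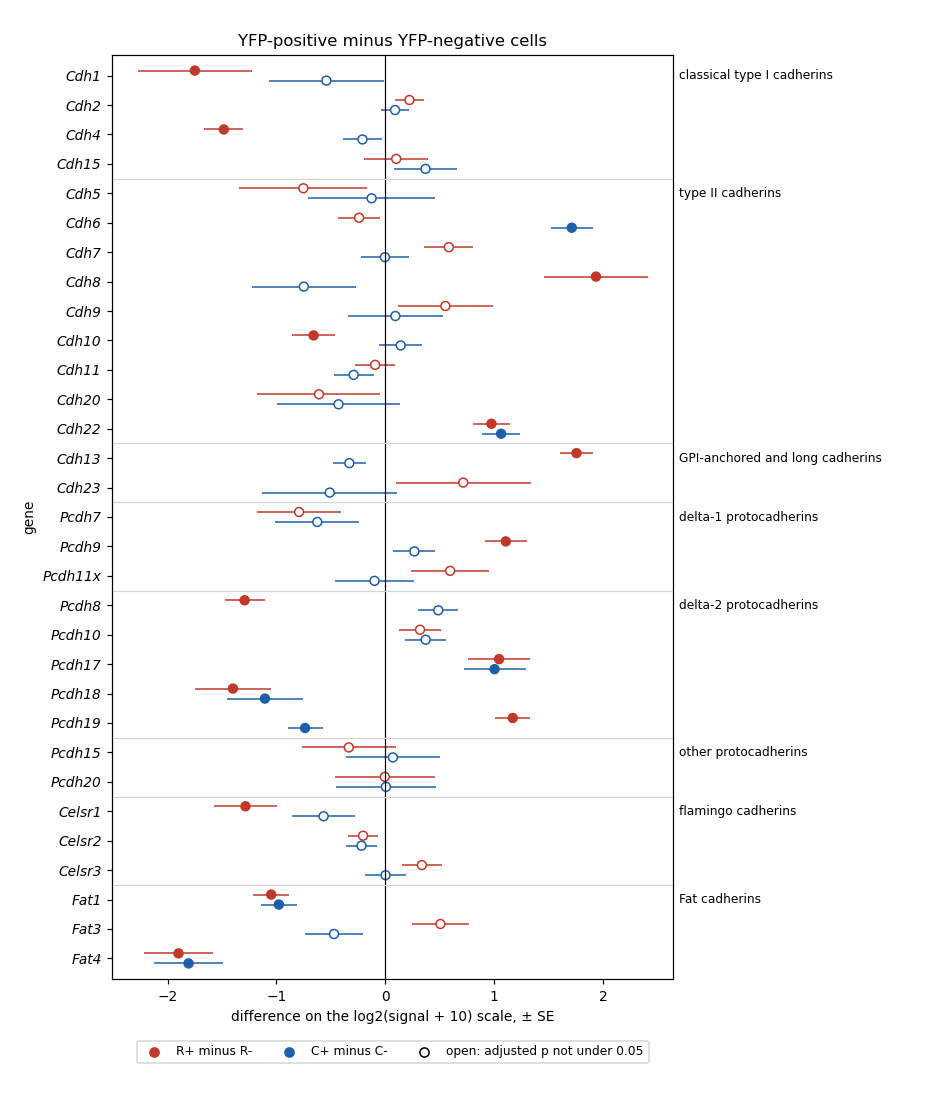
Difference between YFP-positive and YFP-negative cells for the 31 tested cadherins and protocadherins on the log2(signal + 10) scale, with SE bars, for R+ minus R- and C+ minus C-; filled points are called at adjusted p under 0.05. Cdh13 lies at 1.76 in the rostral pair and at -0.33, not called, in the caudal one, Pcdh19 lies on opposite sides of 0 in the 2 pairs, and Fat1 and Fat4 lie below 0 in both.

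Of the delta-1 protocadherins, Pcdh9 was higher in rostral serotonin neurons. It read 2015, 1483 and 1426 in R+, 816, 704 and 727 in R-, 1170, 993 and 789 in C+ and 1000, 678 and 770 in C-. R+ lay above all other arrays, and the other groups overlapped or touched. The R+ minus R- difference was 1.11 ± 0.19 (adjusted p = 0.00122). The R+ minus C+ difference was 0.73 ± 0.19 (adjusted p = 0.0357) and was 0.34 (adjusted p = 0.589) with the beta-actin ratio as a covariate. It was past the threshold in 14 of 28 alternatives, and leaving out any 1 of 7 arrays (those of R+, C+ replicates 2 and 3, R- replicate 3 and C- replicate 3) put its adjusted p between 0.0523 and 0.167. The replicate block called the domain difference of 0.84 (adjusted p = 0.0163). The second Pcdh9 probe set gave 1.39 for R+ minus R- and 1.44 for R+ minus C+, neither called (adjusted p = 0.121 for each).

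Pcdh11x, an X-linked delta-1 protocadherin, read 247, 286 and 156 in R+, 170, 150 and 117 in R-, 102, 84 and 74 in C+ and 56, 141 and 99 in C-. R+ and R- overlapped, and R+ lay above C+. All C+ arrays lay below 107, so the size of the R+ minus C+ difference is uncertain. The R+ minus C+ difference of 1.28 ± 0.36 (adjusted p = 0.0455) was past the threshold in 9 of 27 alternatives. With the beta-actin covariate the difference was 1.06 (adjusted p = 0.42). The adjusted p was 0.0517 to 0.16 when any 1 of 9 arrays (all rostral arrays, C+ replicates 2 and 3 and C- replicate 3) was left out. The second Pcdh11x probe set gave 1.31 for R+ minus C+, not called (adjusted p = 0.477). Pcdh7 had group means of 74.3 to 163 and was not called.

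The delta-2 protocadherins, which bind the actin-regulating WAVE complex through their cytoplasmic tails, had 4 of 5 genes called in R+ against R-, 2 in each direction, beside 12.3% of all genes. In C+ against C-, 3 of 5 were called, 1 higher and 2 lower, beside 13.2% of all genes. How far each call held is given with the gene below. RefSeq promoter windows, the 250 bases before the annotated start in GRCm38.p6, were available for all 5, and for 23 of the 31 tested members. They are printed for the 4 called delta-2 genes, whose levels differ in direction, so that their start regions can be read side by side. Capitals mark matches, on either strand, to the TATA box (TATAAA), the GC box (GGGCGG) or the CCAAT box. The CCAAT letters, and the longer form AGCCAAT that contains them, were chosen after the sequences were seen.
Pcdh8: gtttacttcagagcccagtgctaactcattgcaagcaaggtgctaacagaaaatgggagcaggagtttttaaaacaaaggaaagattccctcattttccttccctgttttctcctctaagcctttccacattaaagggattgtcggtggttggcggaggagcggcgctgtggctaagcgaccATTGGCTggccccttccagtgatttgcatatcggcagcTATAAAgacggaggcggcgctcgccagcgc
Pcdh17: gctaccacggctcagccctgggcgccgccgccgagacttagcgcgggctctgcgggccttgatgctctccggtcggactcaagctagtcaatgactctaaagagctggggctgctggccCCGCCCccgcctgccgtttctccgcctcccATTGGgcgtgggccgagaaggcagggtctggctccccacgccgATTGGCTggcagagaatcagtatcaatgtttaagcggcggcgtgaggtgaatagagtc
Pcdh18: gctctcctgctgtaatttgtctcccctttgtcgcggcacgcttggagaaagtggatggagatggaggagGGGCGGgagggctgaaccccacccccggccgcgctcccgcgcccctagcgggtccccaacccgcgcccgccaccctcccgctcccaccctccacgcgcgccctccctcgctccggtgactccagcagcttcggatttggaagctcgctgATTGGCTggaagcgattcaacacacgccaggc
Pcdh19: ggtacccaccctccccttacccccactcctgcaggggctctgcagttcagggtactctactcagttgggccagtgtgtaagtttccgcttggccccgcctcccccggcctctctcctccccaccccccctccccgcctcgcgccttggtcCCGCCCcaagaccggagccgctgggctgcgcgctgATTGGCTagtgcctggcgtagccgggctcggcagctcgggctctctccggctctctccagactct
The windows lie at chr14:79771313-79771562 on the minus strand for Pcdh8, chr14:84443313-84443562 on the plus strand for Pcdh17, chr3:49757317-49757566 on the minus strand for Pcdh18 and chrX:133688994-133689243 on the minus strand for Pcdh19. Those of Pcdh18 and Pcdh19 overlap the annotated span of their gene, which has another start.

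A CCAAT match was present in all 5 delta-2 windows, in 12 of the 23 members with a window and in 33.8% of the 32851 RefSeq promoters. AGCCAAT was found in 4 of 5 delta-2 windows, in 6 of 23 members and in 7.2% of all promoters. It began 68 bases before the start in Pcdh8, 58 in Pcdh17, 32 in Pcdh18 and 65 in Pcdh19. A GC box was found in the windows of Pcdh10, Pcdh17, Pcdh18 and Pcdh19, in 9 of 23 members and in 32.7% of promoters. Pcdh8 alone of the delta-2 genes had a TATA box, 30 bases before its start, a match held by 2 of 23 members and 12.4% of promoters. The windows of Pcdh17, Pcdh18 and Pcdh19 were 64.8%, 68.0% and 69.2% G or C and that of Pcdh8 was 51.2%, beside a median of 52.4% over all promoters. The GATA motif AGATAA and the homeodomain motif TAATTA were each found in 1 member, Cdh7, and in 10% and 4.8% of promoters. The genes with an AGCCAAT match were Pcdh17 (higher in both kinds of serotonin neuron), Pcdh18 (lower in both), Pcdh19 (opposite calls) and Pcdh8 (lower in R+ than R-). Cdh9 and Cdh20, which were not called, had it too. A link between these letters and the levels was not tested.

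Pcdh19, the X-linked gene of an epilepsy limited largely to females in humans, was the one member with opposite calls. Its signals were 3409, 3297 and 3086 in R+, 1409, 1437 and 1482 in R-, 671, 743 and 579 in C+ and 946, 1421 and 1012 in C-. R+ lay above R- and C+ lay below C-, with no overlap in either pair. R+ exceeded R- by 1.17 ± 0.16 (adjusted p = 0.000152), C+ minus C- was -0.74 ± 0.16 (adjusted p = 0.00588), and R+ exceeded C+ by 2.29 ± 0.16 (adjusted p = 5.5e-07, a signal ratio of 4.91). The domain difference was 1.91 ± 0.23 (adjusted p = 0.000343), and 0.0619 was its adjusted p without the arrays of replicate 3. The lower level in C+ than C- was called for this probe set only: the others gave -0.44 (adjusted p = 0.257) and 0.03 (adjusted p = 0.982), and the mean of the probe sets gave -0.38 (adjusted p = 0.0919). For the domain difference the other probe sets gave 1.48, called (adjusted p = 0.0348), and 1.24, not called (adjusted p = 0.77).

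Pcdh8, known in rat neurons from activity-dependent removal of N-cadherin at synapses, was bright in every group. It read 2731, 3683 and 3231 in R+, 7412, 8970 and 7217 in R-, 4919, 7722 and 7233 in C+ and 3975, 5633 and 4451 in C-. R+ lay below all other arrays and R- lay above all C- arrays. R+ minus R- was -1.29 ± 0.18 (adjusted p = 0.000214). R+ minus C+ was -1.02 ± 0.18 (adjusted p = 0.00371), and -0.70 (adjusted p = 0.217) with the beta-actin covariate. R- minus C- was 0.75 ± 0.18 (adjusted p = 0.0409), the single call of that comparison, and without any 1 of 6 arrays (those of R-, R+ replicate 3 and C- replicates 1 and 3) its adjusted p was 0.0618 to 0.152. The domain difference was -1.78 ± 0.26 (adjusted p = 0.00234; 0.205 without the arrays of replicate 3). With the replicate block C+ minus C-, 0.49, was called as well (adjusted p = 0.00264). The second Pcdh8 probe set gave -1.38, -1.01 and -1.82 for R+ minus R-, R+ minus C+ and the domain difference, all called, and 0.81 for R- minus C-, not called (adjusted p = 0.0736).

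Pcdh17 was higher in both kinds of serotonin neuron. Its signals were 1914, 1573 and 1289 in R+, 1079, 727 and 551 in R-, 1460, 910 and 765 in C+ and 695, 436 and 403 in C-. Replicate 1 was the brightest array of each group, and the groups of each pair did not overlap. The differences were 1.05 ± 0.29 in the rostral pair (adjusted p = 0.0253, and 1.77e-05 with the replicate block) and 1.00 ± 0.29 in the caudal pair (adjusted p = 0.0301, and 2.34e-05 with the block). Without the block, leaving out 1 array ended the rostral call for R+ replicates 1 and 2 and R- replicates 2 and 3 (adjusted p = 0.0724 to 0.135), and the caudal call for C+ replicates 1 and 2 and C- replicates 2 and 3 (adjusted p = 0.0596 to 0.129). The block also called Pcdh17 in R+ against C+ (0.64, adjusted p = 0.00234) and in R- against C- (0.60, adjusted p = 0.00651). With the beta-actin covariate the R+ minus C+ difference was -0.09. The second Pcdh17 probe set gave 1.03 in the rostral pair (adjusted p = 0.358) and 1.10 in the caudal pair (adjusted p = 0.288), neither called.

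Pcdh18 was lower in both. It read 118, 213 and 320 in R+, 443, 690 and 535 in R-, 138, 255 and 286 in C+ and 351, 619 and 499 in C-. The YFP-positive arrays lay below the YFP-negative ones in both domains. R+ minus R- was -1.40 ± 0.35 (adjusted p = 0.0143), and 0.0693 and 0.0711 were the adjusted p-values without R+ replicate 1 or R- replicate 2. C+ minus C- was -1.10 ± 0.35 (adjusted p = 0.0487), which was past the threshold in 12 of 28 alternatives. Leaving out any 1 of 8 arrays (those of R-, R+ replicate 2, C+ replicates 1 and 2 and C- replicates 2 and 3) put its adjusted p between 0.0548 and 0.166. The second Pcdh18 probe set gave -1.38 for R+ minus R- (adjusted p = 0.114) and -1.55 for C+ minus C- (adjusted p = 0.0654), neither called. Pcdh10, a delta-2 gene tied to axon growth, averaged 605 ± 92.0 in R+ against 481 ± 57.0 in R-, and 502 ± 108 in C+ against 380 ± 7.8 in C- and was not called.

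Of the other protocadherins, Pcdh15, known from hair cells, and Pcdh20 were dim, with group means of 80.0 to 102, and neither was called.

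The flamingo cadherins are receptors of planar polarity, and in the brain Celsr1 is known from progenitors and Celsr3 from neurons. Celsr1 read 182, 263 and 286 in R+, 469, 797 and 570 in R-, 232, 449 and 417 in C+ and 530, 398 and 689 in C-. The rostral groups did not overlap and the caudal ones did. R+ minus R- was -1.28 ± 0.29 (adjusted p = 0.00775), with adjusted p = 0.1 and 0.0648 without the arrays of replicate 2 or 3. C+ minus C- was -0.57 (adjusted p = 0.253), and with the beta-actin covariate it was -0.60 and called (adjusted p = 0.0326). Celsr2 averaged 4030 ± 500 in R+ against 4633 ± 408 in R-, and 3553 ± 579 in C+ against 4104 ± 157 in C-, and Celsr3 averaged 2433 ± 162 in R+ against 1944 ± 363 in R-, and 2075 ± 555 in C+ against 2039 ± 271 in C-. Neither was called, and the 95% interval of the R+ minus R- difference was -0.50 to 0.09 for Celsr2 and -0.06 to 0.74 for Celsr3.

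Fat1 and Fat4, giant cadherins related to a growth-restraining gene of Drosophila, fell in serotonin neurons of both domains. Fat1 read 2004, 2791 and 2207 in R+, 4094, 5762 and 4656 in R-, 2128, 2708 and 3033 in C+ and 5022, 5265 and 5077 in C-. Every YFP-positive array lay below every YFP-negative one. The differences were -1.05 ± 0.17 for R+ minus R- (adjusted p = 0.000578) and -0.98 ± 0.17 for C+ minus C- (adjusted p = 0.000958).

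Fat4 read 231, 484 and 407 in R+, 930, 1823 and 1485 in R-, 416, 803 and 655 in C+ and 1690, 2905 and 1982 in C-. Again no YFP-positive array reached the lowest YFP-negative one, and replicate 1 was the dimmest in each group. The differences were -1.90 ± 0.32 (adjusted p = 0.000849) and -1.81 ± 0.32 (adjusted p = 0.00119), and the second probe set gave -1.88 and -2.15, both called. With the replicate block Fat4 was also lower in rostral cells, by -0.74 for R+ minus C+ (adjusted p = 0.000977) and -0.65 for R- minus C- (adjusted p = 0.0043). With the beta-actin covariate the R+ minus C+ difference was -0.07.

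Fat3, which shapes neuron polarity in the retina, averaged 2612 ± 352 in R+ against 1845 ± 351 in R-, and 1746 ± 544 in C+ against 2459 ± 867 in C-. It was not called, and with the replicate block it was higher in R+ than R- (0.51, adjusted p = 0.0495) and than C+ (0.62, adjusted p = 0.0201), with a domain difference of 0.98 (adjusted p = 0.0464).

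Markers of other cells moved with some of these genes. In R+ against R-, where 8 of 8 progenitor and 4 of 4 proliferation markers were lower, so were the 7 members Cdh4, Cdh10, Pcdh8, Pcdh18, Celsr1, Fat1 and Fat4. Cdh1, which met the signal filter through the R- arrays alone, is left out of this count. In C+ against C-, where 6 of 8 progenitor and 4 of 4 proliferation markers were lower, so were Pcdh18, Pcdh19, Fat1 and Fat4. The proliferation list summed to 5617 to 6734 in R+, 14828 to 16846 in R-, 4605 to 5197 in C+ and 10928 to 12371 in C-, and the part of these cells in the levels of these genes was not tested. Of 7 tested markers of mesenchyme, meninges and pericytes, 3 were lower in R+ than R-, and 4 were lower and 1 higher in C+ than C-. The summed signal of all 9 genes of this list on the array, tested or not, ran 579 to 855 in R+ and 1085 to 1659 in R-. It ran 2937 to 3446 in C+ and 3007 to 4053 in C-. The part of such cells in the levels was not tested either. Of 4 red blood cell genes, 4 were lower in both YFP-positive groups.

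**Figure D3:**
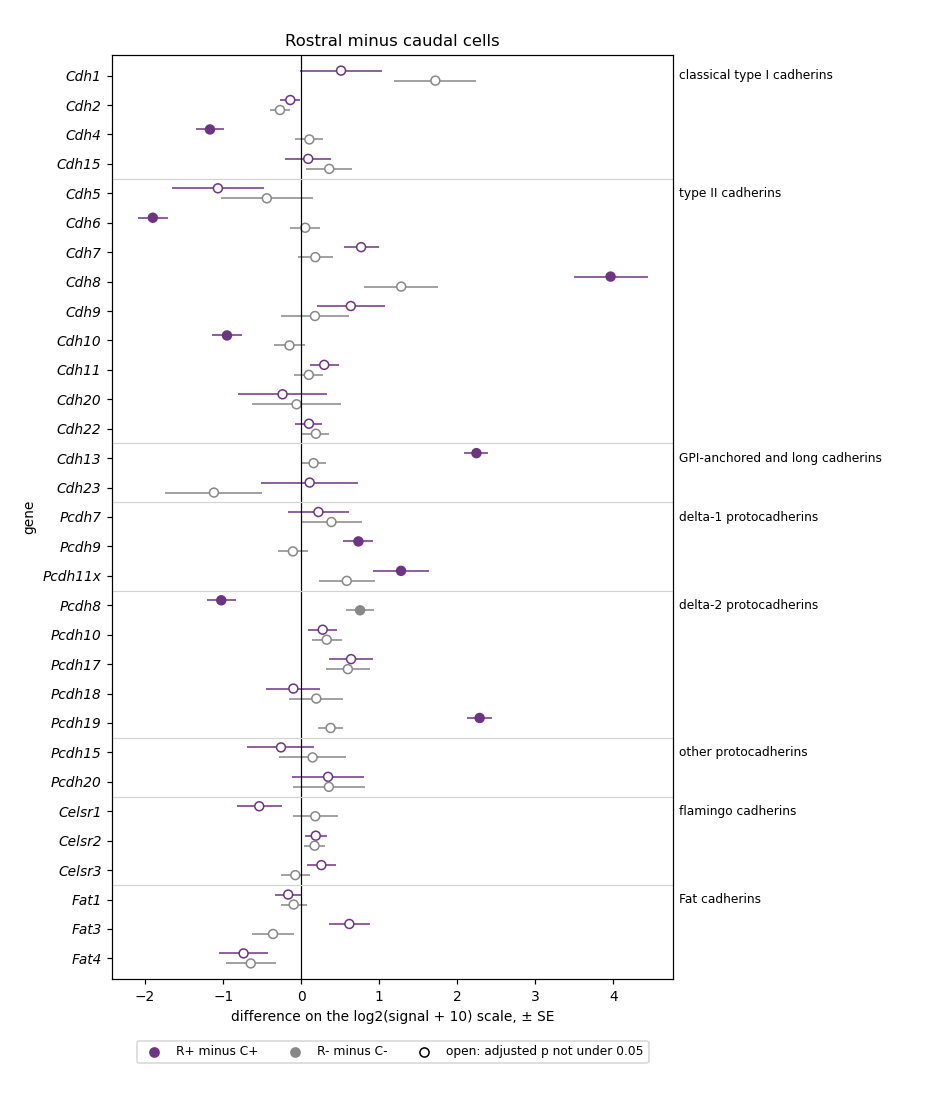
Difference between rostral and caudal cells for the 31 tested cadherins and protocadherins on the log2(signal + 10) scale, with SE bars, for R+ minus C+ and R- minus C-; filled points are called at adjusted p under 0.05. Cdh8 at 3.96, Pcdh19 at 2.29 and Cdh13 at 2.24 lie far to the right for the serotonin neurons, Cdh6 lies at -1.90, and Pcdh8 is the single filled point for the other cells.

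Between the domains, 9 of 31 members were called in R+ against C+, beside 7.19% of all genes. In R- against C-, 1 of 31 was called, beside 2.8% of all genes. Higher in R+ were Cdh8, Cdh13, Pcdh9, Pcdh11x and Pcdh19, and lower in R+ were Cdh4, Cdh6, Cdh10 and Pcdh8. Cdh4, Cdh6, Cdh13, Pcdh8 and Pcdh19 also passed the test of the domain difference itself. The beta-actin ratio moved with domain, and with it as a covariate 5 of the 9 calls stayed (Cdh4, Cdh6, Cdh8, Cdh13 and Pcdh19). The calls that did not stay were Cdh10, Pcdh9, Pcdh11x and Pcdh8. Over all 12845 genes, 924 were called in R+ against C+ without the covariate and 213 with it.

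Calls of the neighbouring cadherin genes named next were alike for some and unlike for others. In the RefSeq order Cdh6, Cdh9 and Cdh10 follow each other on chromosome 15 with no protein-coding gene between them: Cdh6 was high in C+, Cdh10 was low in R+ and Cdh9 was not called. Cdh8, Cdh11 and Cdh5 likewise follow each other on chromosome 8, and Cdh8 was the one of them called. Pcdh8 and Pcdh17, with 1 protein-coding gene between them on chromosome 14, were called in opposite directions in R+ against R-. On the same chromosome Pcdh20 follows Pcdh17 with 2 protein-coding genes between them, and Pcdh9 follows Pcdh20 with 0. Pcdh17 and Pcdh9 were both higher in R+ than R-, and Pcdh20 was not called.

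Genes that work with the cadherins were counted from fixed lists. Of 12 tested catenins and other cytoplasmic partners, Jup (plakoglobin) was higher in R+ than R- (1.10, adjusted p = 0.0387) and Plekha7 was lower (-0.95, adjusted p = 0.0414). Arvcf, a p120-type catenin, was higher in C+ than C- (0.92, adjusted p = 0.000207) and, with Pkp4, lower in R+ than C+ (-0.60, adjusted p = 0.0135 for Arvcf and -0.87, adjusted p = 0.0318 for Pkp4). The other partners on this list were not called in the fit without the block. The block gave this list 4 calls for R+ minus R-, 3 each for C+ minus C- and R+ minus C+, and 1 each for R- minus C- and the domain difference. For this list and the next, the block called 21.2%, 23.1%, 21.6%, 10.3% and 2.69% of all genes in these comparisons. Of 11 planar polarity partners, Prickle1 was higher in R+ than R- (1.13, adjusted p = 0.00137), and Ankrd6 was higher in C+ than C- (1.22, adjusted p = 0.00191) and in R- than C- (0.94, adjusted p = 0.0382). With the block this list had 2 calls each for R+ minus R- and R+ minus C+, and 3 each for C+ minus C- and R- minus C-.

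The Fat and Dachsous list, which takes in the Hippo growth pathway, gave 3 of 8 lower in both pairs, beside 7.88% of all genes lower in R+ against R- and 7.38% in C+ against C-. Under the block, 5 of 8 were lower in R+ against R- and 3 of 8 in C+ against C-, beside 12.4% and 12.3% of all genes. Yap1, the growth-promoting transcription cofactor of the pathway, differed by -2.44 for R+ minus R- (adjusted p = 5.13e-07) and -1.83 for C+ minus C- (adjusted p = 7.06e-06). Its DNA-binding partner Tead2 differed by -1.85 (adjusted p = 1.41e-05) and -1.58 (adjusted p = 5.49e-05), and Wwc1 (Kibra) by -1.39 (adjusted p = 1.52e-05) and -0.90 (adjusted p = 0.000701). Fjx1, of the four-jointed family, was lower in R+ than C+ (-0.62, adjusted p = 0.0171). Of 7 tested WAVE complex genes and 6 cadherin-cleaving proteases, limma called 0 in all 5 comparisons without the block. At an unadjusted p under 0.05 there were 0 of 7 and 0 of 6 in R+ against R-, 1 from each list in C+ against C-, 2 from each in R+ against C+ and 1 from each in R- against C-. Under the replicate block, 3 WAVE genes were lower in R+ against C+, 1 was higher in C+ against C- and 1 lower in R- against C-. Of all genes, the block called 12.4% lower, 10.8% higher and 5.82% lower in these comparisons. Of the proteases the block called 2 higher in R+ against C+, 1 higher each in C+ against C- and R- against C-, and 1 lower in the domain difference. Shares of all genes in that order and direction were 9.19%, 10.8%, 4.49% and 1.56%. Of 2 tested E-cadherin repressors, Zeb2 was lower in C+ than C- (-1.12, adjusted p = 0.0197). The block called 1 gene of this list for each of R+ minus R-, C+ minus C- and R+ minus C+, beside 21.2%, 23.1% and 21.6% of all genes. Among 6 other superfamily genes, Ret, a receptor with cadherin-like domains, was higher in C+ than C- (1.17, adjusted p = 0.00652) and lower in R+ than C+ (-1.81, adjusted p = 0.000565). The calsyntenin Clstn2 was higher in C+ than C- (0.47, adjusted p = 0.0412), lower in R+ than C+ (-1.004, adjusted p = 0.000511) and lower in R- than C- (-0.79, adjusted p = 0.00565), and Clstn1 was lower in C+ than C- (-0.50, adjusted p = 0.029).

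**Figure D4:**
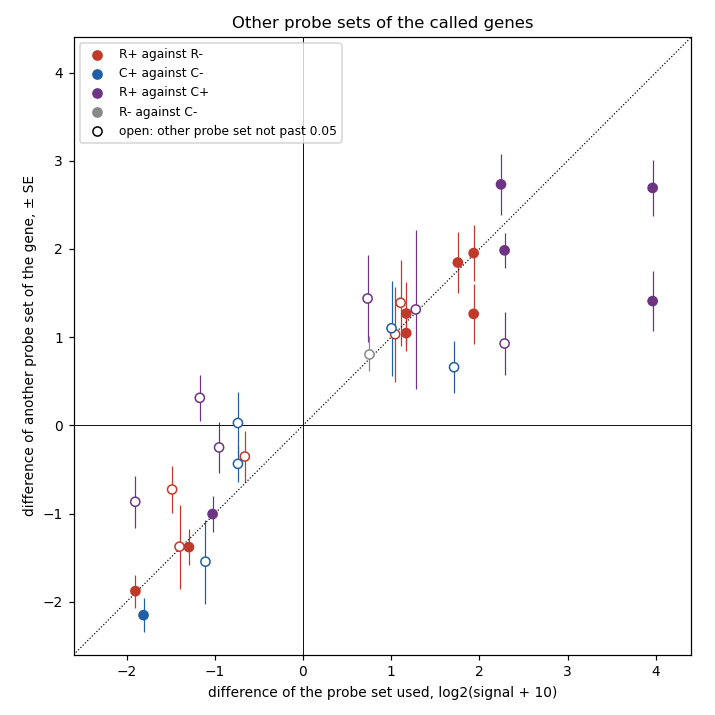
Differences of the other kept probe sets of a called gene (vertical axis, with SE bars) against the difference of the probe set used (horizontal axis), both on the log2(signal + 10) scale, for the 4 comparisons of 2 groups; the dotted line marks equal values. Of 30 points, 28 have the same sign on both axes, and the exceptions are Cdh4 in R+ against C+ and Pcdh19 in C+ against C-.

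Of the 31 tested genes, 17 had 2 or more kept probe sets, which serve as a check within the same arrays and not as replicates. For the 36 calls over the 5 comparisons, other probe sets gave 36 results, but not 1 for each call. Cdh1, Cdh22, Celsr1 and Fat1 had no other kept probe set, so their calls went without this check. Cdh8 and Pcdh19 gave 2 results for each of their calls. Of the 36 results, 15 were called in the same direction and 19 had the same sign and were not called. Another 2 had the opposite sign and were not called, and 0 were called in the opposite direction. Without the Cdh8 probe set kept through R+ alone, 13 of 34 were called in the same direction. Cdh8, Cdh13, Pcdh8, Pcdh19 and Fat4 had another probe set called in the same direction. Probe sets of 1 gene lie on different parts of the transcript, so their levels are not compared with each other.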

How the data were processed

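The authors deposited 1 signal intensity per probe set for 12 Affymetrix Mouse 430 2.0 arrays, made with MAS5 per the submitters' processing notes; the MAS5 version is not given in the sources used here. Values are whole numbers on a linear scale. Trimming 2% at either end gave every array a mean of 500, the scaling these intensities already carried. Probe sets were named from GEO's platform annotation: 34945 carried 1 symbol, 932 several and 9160 none, beside 64 control probe sets. Array medians ran from 93 to 121, and 3 arrays per group limit the precision.

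An offset of 10 was added and log2 taken. Probe sets above 107 on at least 3 arrays were kept, and each gene was represented by its kept probe set of highest mean signal. limma 3.58.1 in R 4.3.3 fitted 1 mean per group over all 12 arrays (eBayes with trend), with 5 contrasts, two-sided tests and Benjamini-Hochberg adjustment at 0.05 over the 12845 genes of each contrast. The fit was tested on simulated data. Every member is accounted for by name; signals of each array are printed for members called in at least 1 contrast, and other genes are named from lists only. Members, lists and tests were chosen with earlier results of these data known. The comparisons share arrays: R+ and C+ each enter a YFP contrast and a domain contrast.

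Replicate numbers come from the sample titles. All 18 pairs of same-numbered arrays of different groups had correlated deviations from their group means over the genes (r = 0.118 to 0.52). The 36 other pairs had r = -0.397 to 0.268. Same-numbered pairs of replicate 1 had r = 0.336 to 0.52. Those of replicates 2 and 3 had r = 0.118 to 0.245, which overlaps the other pairs. The numbers were taken to pair the arrays, which rests mostly on replicate 1. Alternatives were the replicate block, the beta-actin 3′ to 5′ ratio as a covariate, 2 other normalizations, offsets of 1 and 50, no filter and a stricter one, other probe set rules, array weights, fits of 2 groups only, and leaving out each array or replicate number. Promoter windows came from RefSeq (GRCm38.p6) by gene symbol. No gene coordinates are given otherwise, since no genome build is stated for the array values.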

Additional observations from a re-analysis of the deposited data

Results flagged for a closer look

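For 5 members the YFP-positive minus YFP-negative difference differed between the rostral and the caudal domain by limma's test of (R+ minus R-) minus (C+ minus C-). Cdh13 had the largest such value, 2.086 (adjusted p = 9.82e-05), and Pcdh19 had 1.908 (adjusted p = 0.000343). Cdh6 had -1.953 (adjusted p = 0.00159), Pcdh8 had -1.779 (adjusted p = 0.00234) and Cdh4 had -1.274 (adjusted p = 0.0211). Other probe sets of these genes kept the signs. They were called for Pcdh8 (-1.82) and for 1 set of Pcdh19 (1.48). They were not called for Cdh13 (1.98), Cdh6 (-0.81), Cdh4 (-0.20) and another set of Pcdh19 (1.24). Cdh13 was past the threshold in each of the 27 alternatives run, while Pcdh8 and Pcdh19 were lost in 1 of them, Cdh6 in 2 and Cdh4 in 10. The adjusted p without the arrays of replicate 3 was 0.205 for Pcdh8 and 0.0619 for Pcdh19. For Cdh6 it was 0.107 without replicate 2 and 0.0995 without replicate 3, and for Cdh4 0.449 and 0.39.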

How the results depend on the processing

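Of the 36 calls, 16 held in every alternative run, 10 were lost in 1 to 3 of them and 10 in more than 3, and 0 turned their direction. The replicate block kept all 36 and added 12, and it changed no other call. It gave 4 members in R- against C- and 8 for the domain difference. The 36 and the 12 each hold 1 call of Cdh1, which met the signal filter through the R- arrays alone. Without Cdh1 the block gave 2 higher and 1 lower in R- against C-. Array weights gave 12 members in C+ against C-, 16 in R+ against C+, 3 in R- against C- and 9 for the domain difference. Of all 12845 genes, array weights called 3799, 4107, 1463 and 606 in these comparisons. In R+ against C+ the count was 5 with the beta-actin covariate (213 of all genes) and 5 with the mean of a gene's kept probe sets (647 of all genes). The beta-actin ratio and the domain cannot be told apart by these arrays. In R- against C- the limma count was 2 with an offset of 50, and 0 with quantile normalization (6 at an unadjusted p under 0.05), with no filter (4) and with every kept probe set tested (4). Over all genes the calls were 402 with the offset of 50 and 370 with quantile normalization. They were 315 of 18193 with no filter and 271 with every kept probe set. Leaving out 1 array or 1 replicate number gave 8 to 14 members in R+ against R-, 4 to 9 in C+ against C-, 4 to 12 in R+ against C+, 0 to 2 in R- against C- (3 to 6 at an unadjusted p under 0.05 where the count was 0) and 1 to 6 for the domain difference. Of all genes these fits called, in the same order, 639 to 1772, 666 to 1872, 145 to 1798, 77 to 425 and 27 to 226. Leaving out all arrays of replicate 2 or of replicate 3 ended 15 and 18 of the 36 calls. Without C+ replicate 1, 6 more differences were called, those of Cdh13 and Cdh8 given above and 4 others: Pcdh8 in C+ against C- (0.69, adjusted p = 0.0137) and, in R+ against C+, Cdh7 (0.82, adjusted p = 0.0493), Pcdh17 (0.91, adjusted p = 0.0456) and Fat3 (0.84, adjusted p = 0.0498). The cause was not tested; the fits without a replicate number have 4 arrays fewer. Dim members such as Cdh1, Cdh5, Cdh20, Cdh23 and Pcdh11x lie near the median signal, where a difference is hard to measure.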
